A study of Mus musculus with 6 samples.

Results

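The 10 genes described here belong to the BCL2 family, whose proteins decide at the mitochondrial surface whether a cell lives or dies. They were taken by symbol from 24047 rows of the count table: the survival genes Bcl2, Bcl2l1 and Mcl1, the BH3-only genes Bcl2l11, Bmf, Bbc3, Pmaip1 and Bid, and the effector genes Bax and Bak1. All 10 had a row in both expression tables, and all 10 passed the filter on low counts.

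RNA came from 6 cultures of mouse T helper cells, with 3 mice per genotype according to the series' design text. One group is labelled WT, with no further allele given. The other, called Srsf1-cKO here, carries the genotype label Srsf1-flox/flox dLck.Cre: both copies of the splicing factor gene Srsf1 are floxed, and the Cre transgene that deletes them is labelled dLck.Cre, a driver used for T cells. The mice were 7 weeks old and their strain is labelled B6.129. Both groups were treated alike. CD4+CD62L+ cells from the spleen were cultured for 72 h with antibodies against CD3 (0.5 µg/mL) and CD28 (1 µg/mL), and then for 4 h with phorbol myristate acetate (100 ng/mL) and ionomycin (1 µM).

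As background, a BCL2 family protein either guards the outer mitochondrial membrane or helps to breach it. The guardians BCL2, BCL-xL and MCL1 hold BAX and BAK in check. The BH3-only proteins carry a short helix that fits into the groove of the guardians, and some of them also activate BAX or BAK directly; once these form pores, cytochrome c escapes and caspases are switched on. In T cells transcription contributes to the balance: cytokines keep guardian genes expressed, while cytokine withdrawal and the end of a response raise BH3-only genes such as Bcl2l11 and Bbc3.

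The libraries held between 7781283 and 10184268 gene counts. The targeted gene, Srsf1, did not fall: it stood at 540, 458 and 486 CPM in WT and 523, 548 and 471 CPM in Srsf1-cKO (edgeR adjusted p = 0.780). CPM are counts scaled to a common library size, with TMM adjustment for composition. A count over the whole gene need not show the loss of floxed exons, so the groups are named by their labels throughout. T cell markers were abundant in every library, with 7 of 7 listed genes tested and a summed level of 2253 to 2397 CPM in WT and 1875 to 2570 CPM in Srsf1-cKO. Of these 7, Cd3g rose, from 124 ± 35.3 to 204 ± 35.7 CPM (edgeR adjusted p = 0.0452).

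Of the 10 genes, 2 fell in Srsf1-cKO, both of them BH3-only genes, and 0 rose. Bmf was 8.19-fold lower and Bbc3 3.60-fold lower. No guardian and no effector gene passed the test. Over all 10454 tested genes, edgeR called 18.4% at an adjusted p under 0.05, with 8.90% higher and 9.50% lower, so 2 of 10 is close to the share over both directions in this fit. The background moved with single libraries while both genes passed: edgeR called 1.84% of all genes without WT replicate 1 and 2.20% when replicate 2 of Srsf1-cKO was left out. Both genes passed narrowly in those fits (edgeR adjusted p = 0.0417 to 0.0443). With any other library left out, edgeR called 10.6% to 18.7% of all genes. At an unadjusted p under 0.05, 4 of the 10 were lower (Bmf, Bbc3, Bcl2l11 and Bcl2l1) and 0 higher, against 17.7% lower and 17.2% higher of all tested genes. DESeq2 and limma-voom also called 0 higher. The median log2 fold change (Srsf1-cKO over WT, as everywhere below) was -0.32 over the 10 genes and 0.01 over all tested genes. In bulk RNA, fewer cells that express a gene and less of its RNA per cell cannot be told apart.

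**Figure D1:**
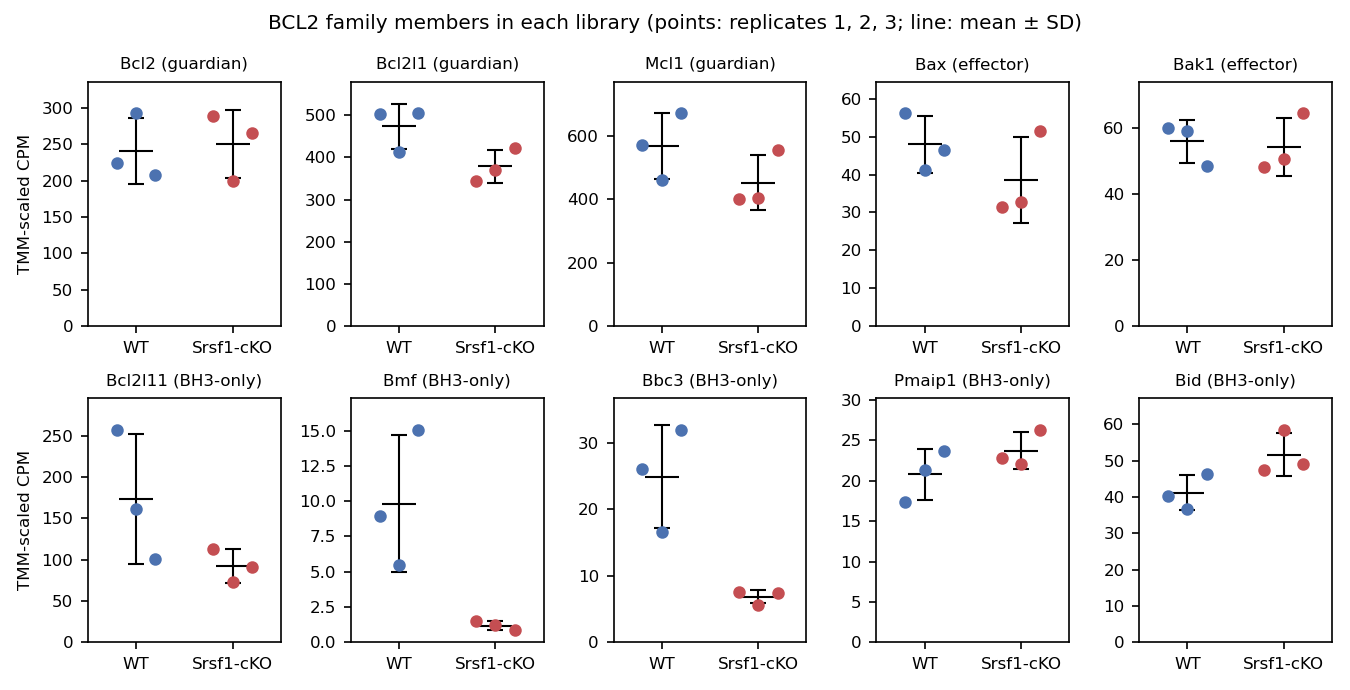
TMM-scaled CPM (y axis, from 0) of each BCL2 family gene in WT (blue) and Srsf1-cKO (red); each point is 1 library, and the line and bars give mean ± SD (n = 3). Bmf and Bbc3 are lower in all 3 Srsf1-cKO libraries than in any WT library, at 0.845 to 1.51 against 5.46 to 15.0 CPM for Bmf and 5.69 to 7.56 against 16.6 to 31.9 CPM for Bbc3.

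Bmf encodes a BH3-only protein known for its release from the cytoskeleton under stress and loss of attachment. The WT libraries held 81, 42 and 114 Bmf counts, and the Srsf1-cKO libraries 14, 11 and 9. In CPM these were 8.95, 5.46 and 15.0 against 1.51, 1.23 and 0.845. Every Srsf1-cKO library lay below every WT library, and the lowest WT value stood well above the highest Srsf1-cKO value. With edgeR the difference was -3.03 on the log2 scale (95% confidence interval -4.02 to -2.05; SE 0.44; adjusted p = 0.00667). An exact two-sided permutation test on log2(CPM + 1) gave p = 0.1, the smallest that 3 against 3 libraries allow. Among all tested genes only 11 had a lower log2 fold change.

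Bmf was also the lowest of the 10 per transcript length. In FPKM, which divides by length as well as by depth, it stood at 1.31, 0.878 and 2.40 in WT and 0.249, 0.229 and 0.141 in Srsf1-cKO. With only 2 libraries at 1 FPKM or more it was not among the 9617 genes tested on that scale. Without that filter, limma on log2(FPKM + 1) gave a difference of -1.03 (adjusted p = 0.0448), which understates the fold of so low a gene.

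Bbc3 encodes PUMA, a BH3-only protein that binds all of the main guardians and is a classic target of p53 and of FOXO3. The WT libraries held 236, 128 and 242 Bbc3 counts, and the Srsf1-cKO libraries 70, 51 and 79. In CPM these were 26.1, 16.6 and 31.9 against 7.56, 5.69 and 7.42. The groups did not overlap, and the 3 Srsf1-cKO libraries lay close together while the WT libraries spread more widely. With edgeR the difference was -1.85 on the log2 scale (95% confidence interval -2.45 to -1.25; SE 0.27; adjusted p = 0.00667), and the exact permutation test again gave 0.1. The deposited FPKM showed the same direction, from 9.59, 6.48 and 12.5 in WT to 3.16, 2.43 and 3.10 in Srsf1-cKO. There the difference in log2(FPKM + 1) was -1.40 (SE 0.22, limma adjusted p = 0.0106). Bbc3 was the 1 gene called of the 9 in this family that were tested on FPKM, where limma called 18.7% of all genes; the call did not hold without WT replicate 1 (adjusted p = 0.0576) or without Srsf1-cKO replicate 2 (0.0655).

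The sequences before the start sites of Bmf and Bbc3 are shown because these are the members that were called lower. Shared regulation of the 2 genes was not tested. They are RefSeq sequences of GRCm38.p6, a later mouse build than the mm9 named in the submitters' processing notes, and give the 250 bases before a start, 5′ to 3′ on the gene's strand. Capitals mark matches on either strand to the FOXO motif GTAAACA, the E-box CACGTG, the AP-1 motif TGANTCA, the GC box GGGCGG or the CCAAT box. The most upstream start listed for Bmf is on the minus strand (chr2:118549687-118549936), and the first 2 of 3 listed starts of Bbc3 are on the plus strand (chr7:16309333-16309582 and chr7:16310011-16310260):
Bmf: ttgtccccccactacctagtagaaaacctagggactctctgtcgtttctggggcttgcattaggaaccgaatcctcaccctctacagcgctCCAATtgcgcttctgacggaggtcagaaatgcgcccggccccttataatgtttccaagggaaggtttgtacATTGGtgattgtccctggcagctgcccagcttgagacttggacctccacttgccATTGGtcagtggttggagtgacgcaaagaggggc
Bbc3, first start: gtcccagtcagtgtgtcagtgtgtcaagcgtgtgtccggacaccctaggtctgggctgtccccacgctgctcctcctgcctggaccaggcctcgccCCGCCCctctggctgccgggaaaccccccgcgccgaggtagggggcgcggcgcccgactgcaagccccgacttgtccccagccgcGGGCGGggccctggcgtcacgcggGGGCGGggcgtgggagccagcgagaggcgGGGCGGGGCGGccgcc
Bbc3, second start: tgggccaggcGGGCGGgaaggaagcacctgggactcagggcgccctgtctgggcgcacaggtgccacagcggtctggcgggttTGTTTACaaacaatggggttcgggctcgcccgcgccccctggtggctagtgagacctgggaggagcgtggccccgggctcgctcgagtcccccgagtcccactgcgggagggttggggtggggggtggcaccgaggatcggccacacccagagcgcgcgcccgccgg

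The printed Bmf window held 3 CCAAT boxes and 0 GC boxes. Of 32851 windows of this length before RefSeq starts, 33.8% held 1 or more CCAAT boxes. The printed Bmf window was 54% G or C (median of all windows 52.4%). The first Bbc3 window held 5 GC boxes, a motif found in 32.7% of all windows, at 76.4% G or C. Neighbouring matches overlap there. The second Bbc3 window held 1 GC box and 1 FOXO motif, the latter found in 3.17% of all windows. The third Bbc3 window, not printed, held 7 GC boxes, 1 E-box and 1 CCAAT box. Matches describe letters only. Windows were listed for 9 of the 10 genes (16 starts). A FOXO motif stood in 1 of the 2 windows of Bcl2l11 as well, and in none of the windows of Bcl2, Bcl2l1, Mcl1, Bmf, Bax, Bak1 and Bid.

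Bcl2l11 encodes BIM, which binds every guardian and is the main BH3-only killer of T cells after a response. It stood at 257, 162 and 101 CPM in WT, against 114, 73.0 and 91.7 CPM in Srsf1-cKO. WT replicate 3 lay below the highest Srsf1-cKO library, so the groups overlapped. The log2 fold change of -0.90 (SE 0.31, 95% confidence interval -1.60 to -0.21) did not pass (edgeR adjusted p = 0.0710; exact permutation p = 0.2). The call depended on the processing: among the settings that called Bcl2l11 lower were DESeq2 (adjusted p = 0.0140), no count filter (edgeR adjusted p = 0.0291) and the fit without WT replicate 3 (log2 fold change -1.19, edgeR adjusted p = 0.00953). Without WT replicate 1, the library with the highest value, the log2 fold change was -0.52 (edgeR adjusted p = 0.252). BIM is made in several splice forms that differ in potency, and neither table separates them.

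The other BH3-only genes did not pass. Bid encodes the protein that caspase 8 cuts to link death receptors to mitochondria. It stood at 40.4, 36.8 and 46.5 CPM in WT and 47.5, 58.5 and 49.0 CPM in Srsf1-cKO. These groups did not overlap, but the nearest libraries were only about 1 CPM apart, and the log2 fold change of 0.33 (SE 0.16) had an edgeR adjusted p of 0.171 (exact permutation p = 0.1). In all, 3 of the 10 genes (Bmf, Bbc3 and Bid) had groups that did not overlap, while 39.4% of all tested genes did. Pmaip1 encodes NOXA, which binds MCL1 and promotes its loss. It stood at 17.4, 21.3 and 23.6 CPM in WT and 22.8, 22.1 and 26.3 CPM in Srsf1-cKO, with a log2 fold change of 0.19 (95% confidence interval -0.20 to 0.59, edgeR adjusted p = 0.461).

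**Figure D2:**
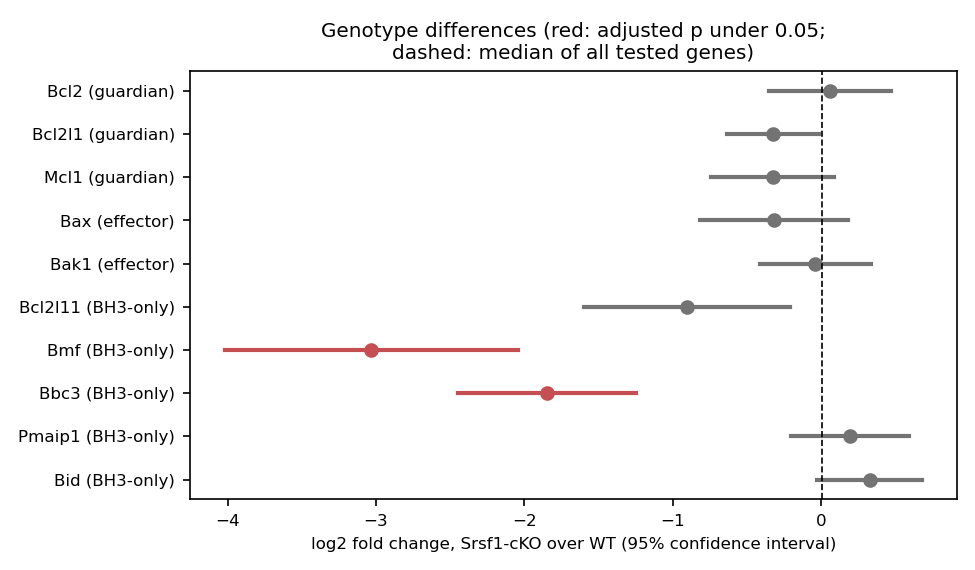
Log2 fold change of each gene (x axis, Srsf1-cKO over WT; point, with its 95% confidence interval as a bar), coloured red at an edgeR adjusted p under 0.05. Bmf (-3.03) and Bbc3 (-1.85) are red, and the grey intervals of 6 of the other genes cross 0, while those of Bcl2l11 and Bcl2l1 lie just below it.

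Of the guardian genes, Bcl2l1 and Mcl1 were the most abundant of the family, and none of the 3 passed the test. Mcl1 encodes a short-lived guardian that activated T cells need. It stood at 572, 460 and 671 CPM in WT and 400, 403 and 554 CPM in Srsf1-cKO, with overlapping groups and a log2 fold change of -0.33 (95% confidence interval -0.74 to 0.09, edgeR adjusted p = 0.234). Bcl2l1 encodes BCL-xL, a guardian induced by CD28 costimulation, and a short splice form that promotes death; gene counts do not separate these. It stood at 503, 413 and 505 CPM in WT and 345, 370 and 422 CPM in Srsf1-cKO, where only Srsf1-cKO replicate 3 reached above WT replicate 2. Its log2 fold change was -0.32 (95% confidence interval -0.63 to -0.01, edgeR adjusted p = 0.130). Bcl2, the founding guardian gene and one that naive and memory T cells rely on, stood at 224, 293 and 207 CPM in WT and 289, 199 and 265 CPM in Srsf1-cKO. Its groups lay across each other (log2 fold change 0.06, 95% confidence interval -0.35 to 0.47, edgeR adjusted p = 0.845). As a ratio to the WT level, the intervals ran from 0.599 to 1.06 for Mcl1, from 0.645 to 0.991 for Bcl2l1 and from 0.782 to 1.39 for Bcl2.

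Neither effector gene passed the test. BAX and BAK are the proteins that form the pores. Bax stood at 56.2, 41.2 and 46.6 CPM in WT and 31.3, 32.7 and 51.5 CPM in Srsf1-cKO. Of the Srsf1-cKO libraries 2 lay below all WT libraries and replicate 3 lay among them (log2 fold change -0.32, 95% confidence interval -0.81 to 0.18, edgeR adjusted p = 0.337). Bak1 stood at 60.0, 59.2 and 48.4 CPM in WT and 48.1, 50.4 and 64.4 CPM in Srsf1-cKO, with a log2 fold change of -0.04 (95% confidence interval -0.41 to 0.33, edgeR adjusted p = 0.882).

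Per transcript length, the order of the genes was led by guardians in both genotypes. In WT, Bcl2l1 (143 ± 12.8 FPKM, SD, n = 3) and Mcl1 (118 ± 21.4) came first and overlapped. They were followed by Bax (46.8 ± 5.61), then by Bcl2l11, Bcl2, Bak1 and Bid between 27.1 and 16.5 FPKM, of which each overlapped the next. Bbc3 (9.52 ± 3.00) and Pmaip1 (5.80 ± 1.05) overlapped each other below these, and Bmf (1.53 ± 0.786) was last. In Srsf1-cKO, Bcl2l1 (123 ± 13.5 FPKM) and Mcl1 (101 ± 19.9) again led, with Bax (40.6 ± 12.6) the third. Bcl2l11 stood at 15.7 ± 2.87 FPKM, in this group below Bid (22.3 ± 3.06) and Bak1 (22.0 ± 3.67) without overlap. Bbc3 (2.90 ± 0.403) stood below Pmaip1 (7.14 ± 0.647), also without overlap, and Bmf (0.206 ± 0.0572) was last.

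The makeup of the BH3-only group follows from the same values and is given as a description, with no test. Summed over the 5 BH3-only genes, FPKM were 69.5, 54.7 and 57.1 in WT and 48.8, 47.9 and 48.1 in Srsf1-cKO. All 3 Srsf1-cKO sums lay below the WT sums and within about 1 FPKM of each other. Bbc3 made up 11.8% to 21.9% of the sum in WT and 5.08% to 6.46% in Srsf1-cKO, and Bmf 1.60% to 4.21% and 0.294% to 0.509%. Bid made up 22.4% to 32.8% in WT and 41.5% to 53.8% in Srsf1-cKO. Pmaip1 made up 6.69% to 11.75% in WT and 13.9% to 16.4% in Srsf1-cKO. Bcl2l11 made up 29.3% to 55.2% and 26.5% to 37.7%, with overlapping ranges. In mean FPKM Bcl2l11 had the largest fall of the 5 genes, from 27.1 to 15.7. The ratio of summed guardian to summed BH3-only FPKM was 4.10 to 5.53 in WT and 4.71 to 6.04 in Srsf1-cKO, so the groups overlapped in the balance of the 2 classes.

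**Figure D3:**
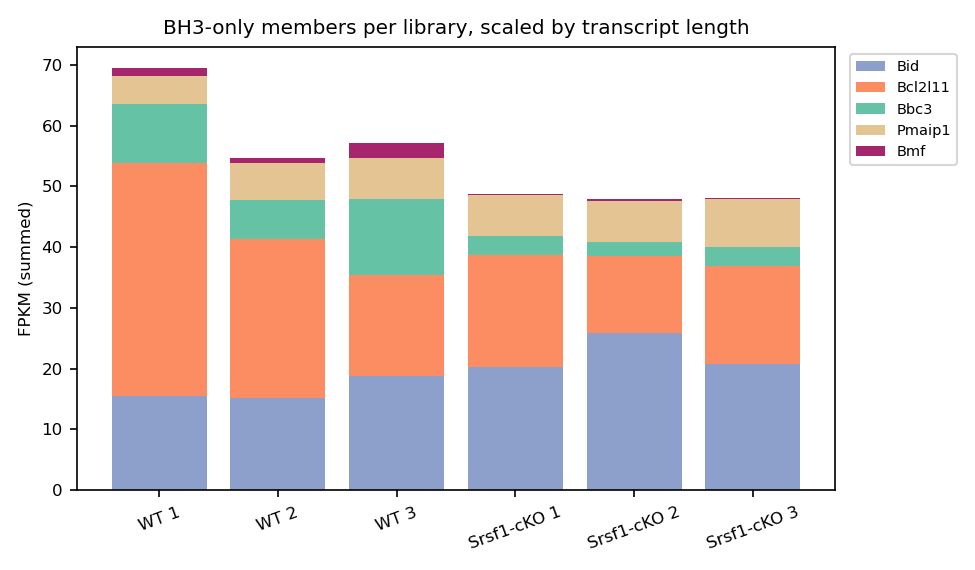
Summed FPKM (y axis, from 0) of the 5 BH3-only genes in each library (x axis), stacked by gene. The Srsf1-cKO bars (47.9 to 48.8) are lower than the WT bars (54.7 to 69.5). Bbc3 and Bmf segments are thinner in Srsf1-cKO, and Bid and Pmaip1 segments thicker. The Bcl2l11 segment has the largest fall in mean, from 27.1 to 15.7 FPKM, but overlaps between the groups.

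Both calls held under every alternative tried on the counts. Over 14 other settings (3 scalings, 2 filters, DESeq2, limma-voom, a replicate block and each of 6 libraries left out), Bmf passed in 14, with log2 fold changes from -3.33 to -2.61 and adjusted p up to 0.0419. Bbc3 passed in 14 too, from -2.08 to -1.65, with adjusted p up to 0.0443. Bcl2l11 passed in 4 of 14, from -1.19 to -0.52. No other gene of the 10 passed in any of them.

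**Figure D4:**
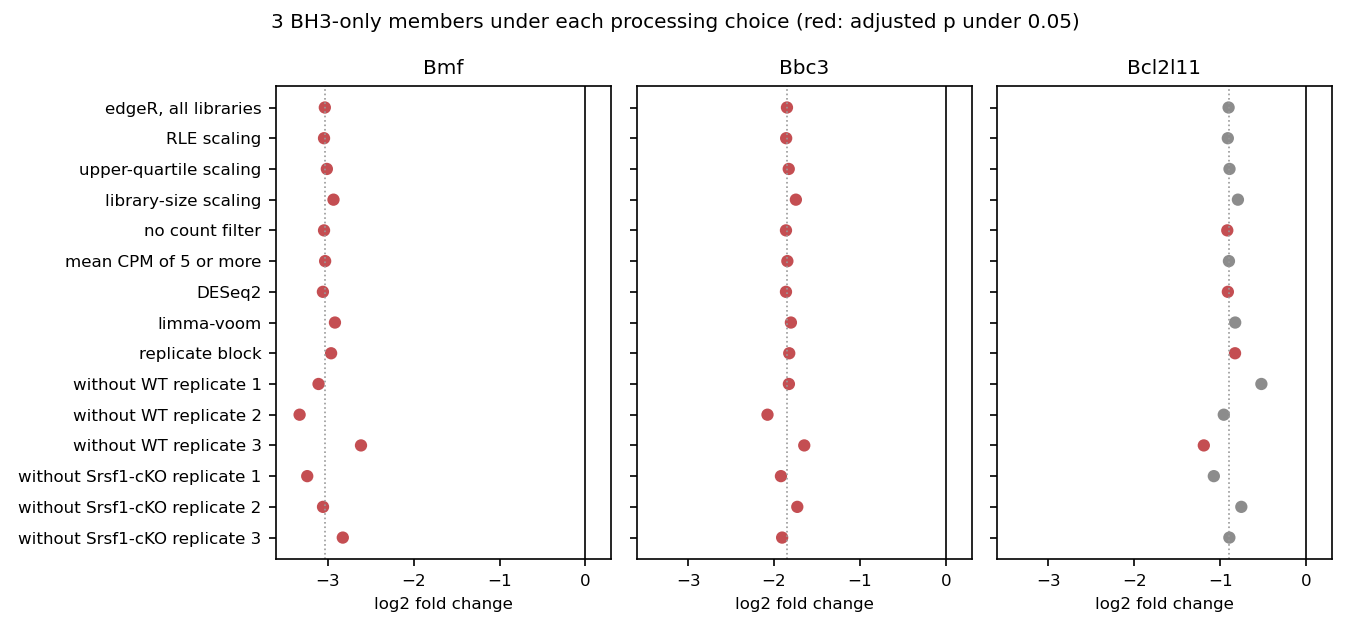
Log2 fold change (x axis) of Bmf, Bbc3 and Bcl2l11 in the fit with all libraries (top) and under each of 14 alternatives; red points have an adjusted p under 0.05. All points lie below 0, all Bmf and Bbc3 points are red, and Bcl2l11 is red in 4 alternatives.

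Some markers of other cell types and of stress moved with genotype as well. B cell markers summed to 1.19 to 6.89 CPM in WT and 8.26 to 21.4 CPM in Srsf1-cKO (1 of 4 tested rose), myeloid markers to 3.04 to 6.63 and 10.3 to 24.6 CPM (1 of 3 rose), dendritic cell and MHC class II genes to 52.5 to 77.9 and 97.5 to 122 CPM (2 of 3 rose), and NK cell genes to 0.884 to 4.22 and 9.18 to 32.9 CPM (1 of 2 rose). Siglech and Ncr1, markers of plasmacytoid dendritic cells and NK cells, were at 0 counts in every library, as were 4 of 5 erythroid genes. The NK cell gene that rose was Klrk1, from 0.173 to 6.81 CPM on average (edgeR adjusted p = 0.00862), while Nkg7 did not pass (0.0574). Klrb1c, not tested, held 0, 1 and 1 counts in WT and 0, 1 and 3 in Srsf1-cKO. H2-Aa rose from 3.22 to 17.8 CPM (0.0124) and Cd74 from 45.1 to 81.7 CPM (0.0132), while H2-Ab1 did not pass (0.693). Itgax, not tested, had 0 counts in each WT library and 5, 7 and 13 in Srsf1-cKO. Of the CD8 genes, Cd8a stood at 0.416 and 0.517 CPM on average, and Cd8b1 did not pass (edgeR adjusted p = 0.115). Of 9 heat shock genes 5 fell, with summed levels of 4405 to 5211 CPM in WT and 3439 to 3999 CPM in Srsf1-cKO. The sum is mostly Hspa8 and other abundant genes, and the inducible Hsp70 genes fell much further. Hspa1b stood at 226, 206 and 12.0 CPM in WT and at no more than 2.70 CPM in Srsf1-cKO, and Hspa1a at 154, 126 and 4.49 CPM against no more than 1.30 CPM, so WT replicate 3 stood apart from the other WT libraries in both. WT replicate 3 also had the highest Bmf (15.0 CPM) and Bbc3 (31.9 CPM) of the 6 libraries. Without it Bmf and Bbc3 were still called, with log2 fold changes of -2.61 and -1.65 (edgeR adjusted p = 0.00365 and 0.00444). The WT libraries left in that fit had high Hspa1a and Hspa1b, so that fit cannot tell genotype from the heat shock difference. The part of these cell type and stress markers in the lower Bmf and Bbc3 levels was not tested.

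In the rest of the family and the death pathway around it, 12 of 77 tested genes passed (15.6%), near the 18.4% of all genes, so the counts below are a description and set none of these lists apart. Of 13 other BCL2 family genes tested, 1 passed: Bnip3l, which encodes a mitochondrial BH3-like protein of mitophagy, fell from 158 ± 39.9 to 99.5 ± 10.2 CPM (edgeR adjusted p = 0.0428). Bcl2l2, the gene of the guardian BCL-w, stood at 13.4 ± 4.99 and 5.36 ± 2.72 CPM and narrowly missed (log2 fold change -1.33, edgeR adjusted p = 0.0537). Bik (0.791 and 1.94 CPM; edgeR adjusted p = 0.0945) and Bcl2a1a (1.16 and 2.67 CPM; 0.231), a gene with near-identical copies that may share reads, did not pass. The list's median log2 fold change was -0.08.

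Downstream of the mitochondria, 1 of 14 apoptosome and caspase genes rose and 1 fell (median log2 fold change 0.17). Casp6, an executioner caspase gene, stood at 9.07, 14.8 and 10.8 CPM in WT and 58.6, 42.4 and 35.8 CPM in Srsf1-cKO, without overlap (log2 fold change 1.98, SE 0.25, edgeR adjusted p = 0.00490). Apaf1, which builds the apoptosome, fell from 92.3 ± 7.41 to 65.4 ± 4.99 CPM (edgeR adjusted p = 0.0334). Cycs, the gene of cytochrome c, stood at 30.5 and 41.0 CPM and Aifm1 at 24.9 and 32.1 CPM, and neither passed (edgeR adjusted p = 0.0681 and 0.144). Of 5 genes of inhibitor of apoptosis proteins 1 rose: Birc5, the gene of survivin and also a mitosis gene, from 19.8 ± 2.90 to 38.1 ± 11.5 CPM (edgeR adjusted p = 0.0256). Birc3, Xiap and Birc6 did not pass (edgeR adjusted p = 0.131, 0.228 and 0.448). The median of this list was -0.14.

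In the death receptor pathway 1 of 12 genes rose and 2 fell (median -0.07). Tnfsf10, the gene of the death ligand TRAIL, rose from 6.74 ± 1.34 to 20.9 ± 9.78 CPM (edgeR adjusted p = 0.0174). Tnfrsf1a, a TNF receptor gene, fell from 31.4 ± 1.30 to 20.9 ± 1.74 CPM (0.0289), and Ripk1, the gene of a kinase at that receptor, from 99.8 ± 0.770 to 72.9 ± 9.15 CPM (0.0468). Traf2 did not pass (0.0717), nor did Cflar, the most abundant, which blocks caspase 8 (1016 ± 117 and 905 ± 101 CPM; 0.428).

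Regulators that can act on these genes were read in the same way. Of 12 genes of p53 and its targets 1 rose and 1 fell (median -0.23). Perp, the gene of a membrane protein induced by p53, rose from 4.35 ± 0.965 to 23.3 ± 5.03 CPM (edgeR adjusted p = 0.00347), and Trp53 itself fell from 167 ± 20.7 to 124 ± 4.30 CPM (0.0490). Mdm4 (0.0605), Eda2r (0.0728) and Trp53inp1, the most abundant (0.355), did not pass. Of 15 genes of cytokine and FOXO control 3 fell and 0 rose at an adjusted p under 0.05 (median -0.13; edgeR). Among them, Pim2, a cytokine-induced survival kinase gene, fell from 439 ± 91.9 to 196 ± 70.8 CPM (0.0195), and Foxo3, a transcription factor gene, from 28.2 ± 3.49 to 18.6 ± 1.20 CPM (0.0373). Il2rb (0.0639) and Il2ra, the most abundant (3801 ± 111 and 4905 ± 474 CPM; 0.0641), did not pass. Of 6 tested genes of MCL1 turnover 0 passed with edgeR, DESeq2 or limma-voom, and 1 (Cdc20) had an unadjusted p under 0.05 (adjusted 0.0945); Fbxw7, Usp9x, Gsk3b and Huwe1, the most abundant, had edgeR adjusted p of 0.480 to 0.750. Without Srsf1-cKO replicate 1, 1 gene of this list rose.

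**Figure D5:**
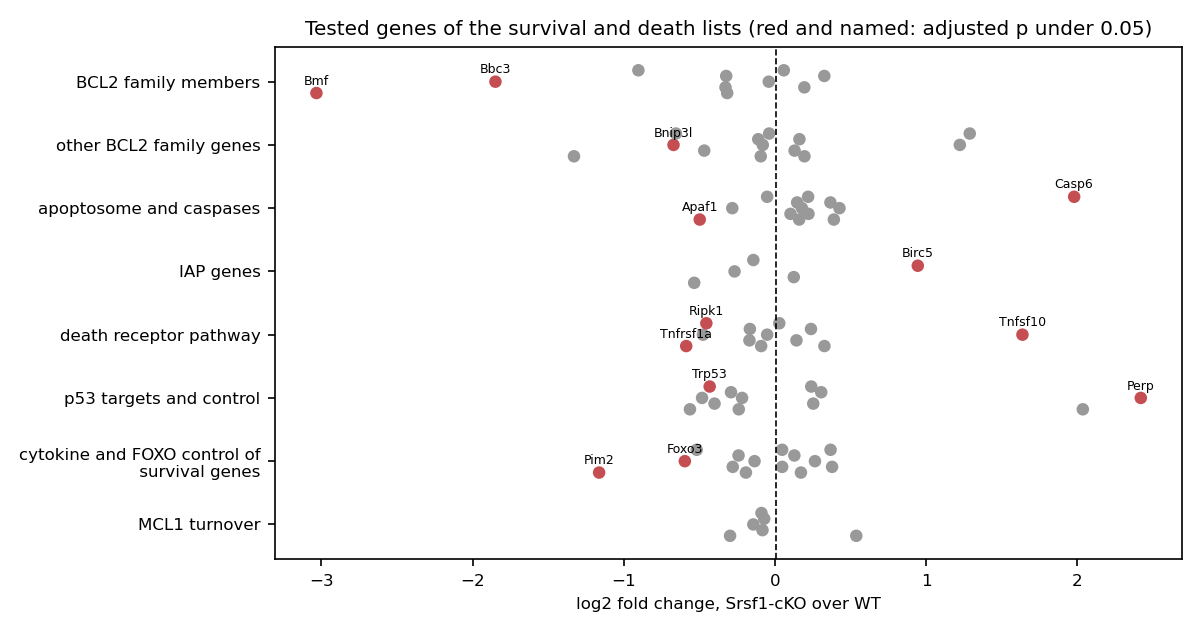
Log2 fold change (x axis) of tested genes of the 8 survival and death lists (rows; 2 genes not reported are left out; points are spread vertically for visibility), red and named at an edgeR adjusted p under 0.05, with the median of all tested genes dashed. Bmf (-3.03) and Bbc3 (-1.85) are the lowest of all the points shown, and Perp (2.42) and Casp6 (1.98) are the highest called.

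Most of these calls depended on single libraries. Of the 12 called genes outside the 10 members, 2 (Casp6 and Perp) passed when either WT replicate 1 or replicate 2 of Srsf1-cKO was left out, 8 without WT replicate 2, 11 without WT replicate 3 and 6 each without Srsf1-cKO replicate 1 or 3. With library-size scaling alone 7 of the 12 passed, and there the median log2 fold change of all tested genes was 0.11. All 12 kept their direction in each of these settings.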

How the data were processed

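RNA-seq of 6 libraries (3 WT, 3 Srsf1-cKO) was analysed from 2 tables and an alignment report. The raw counts per gene were deposited by the authors; reads were aligned with STAR 2.4.2a, per the file headers, and the build is mm9, per the submitters' processing notes. The unit of the deposited FPKM values was read from the values, and the submitters' processing notes name Cufflinks. Not given in the sources used here are annotation, counting program and strand setting; in RefSeq no other gene overlaps Bmf or Bbc3, and those in the count table that overlap other members held at most 55 counts over all libraries (Acoxl, which overlaps Bcl2l11).

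Counts were tested with edgeR 4.0.16 (R 4.3.3; filterByExpr, TMM, quasi-likelihood, two-sided, genotype only, Benjamini-Hochberg over all tested genes, threshold 0.05). log2(FPKM + 1) was tested with limma 3.58.1 for genes with 3 or more libraries at 1 FPKM or above. SE is the log2 fold change over the root of its F value. Single genes also had exact permutation tests. DESeq2 1.42.0 and the other alternatives are given below. The scripts were tested on simulated counts. All replicate pairs differed by more than sampling noise (chi-square per degree of freedom 6.53 to 38.9). p-values measure the spread between these libraries. The members and lists were chosen with earlier results of these data known. All 10 members are named, and from each other list the 4 tested genes with the smallest adjusted p and the most abundant one. Values of 2 genes that this rule takes are not reported here; the counts of their lists include them.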

Additional observations from a re-analysis of the deposited data

How the results depend on the processing

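Bmf and Bbc3 were called lower under all 14 alternatives, and no member was called higher under any. The count of lower members was 2 or 3, the third being Bcl2l11 in each case: with no count filter, DESeq2, a replicate block, an adjusted p under 0.1, or without WT replicate 3. Bcl2 and Bak1 changed sign in 3 of 14 alternatives each, without passing in any. The number of members whose CPM did not overlap was 3, and 4 with library-size scaling. Over all genes, 1923 were called; leaving out 1 library gave between 195 (without WT replicate 1) and 1989, with 234 and 1121 when replicate 2 or replicate 1 of Srsf1-cKO was left out. An adjusted p under 0.1 gave 2972 and under 0.01 gave 279. On FPKM 1 member was called, 2 with no FPKM filter (Bbc3 and Bmf), and between 0 and 2 with 1 library left out, where 2 included Bcl2l11 (adjusted p = 0.0235 without WT replicate 3).

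Same-numbered libraries of the 2 genotypes did not all deviate together (correlations of 0.25, 0.01 and 0.29 for replicates 1, 2 and 3; the first and the last matched their own number best), so the numbers are not taken as pairs. With the replicate block 3 members were called lower, Bcl2l11 at an adjusted p of 0.0264, and 2270 genes in all. Depth limits Bmf most, which rests on 9 to 14 counts in the Srsf1-cKO libraries, and 3 libraries a group limit every interval.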
